A study of Drosophila melanogaster with 4 samples.

Results

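The Tweedle and Osiris families are genes of insect epidermis and cuticle, and their transcripts were compared in *poly* mutant and wild-type *Drosophila* larvae. Members were taken by their current symbol (Twdl, or Osi followed by a digit). This gave 25 Tweedle and 24 Osiris genes, together 49 of the 11907 genes with a named probe on the array. The array held 51 probes for them, all with a value in each sample, and no member was lost to a filter. RNA came from whole larvae of the *poly* mutant stock (poly05137/TM6B) and from wild-type Canton S larvae, both early in the last larval instar. The labels give Canton S as the genetic background of both, and flies were kept at 25°C without treatment. Each of 4 arrays set 1 *poly* sample against 1 wild-type sample in the other dye. Cy5 marked the *poly* RNA on replicates 1 and 2, and Cy3 marked it on the other arrays. The study describes the 4 arrays as biological replicates. The mutant is a P-element insertion in the intron of the gene *poly*, now listed as *Elp6*, kept in the stock over the balancer chromosome TM6B. The sources used here do not give whether the larvae collected were free of the balancer.

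The insect cuticle is an apical matrix of chitin and protein that the epidermis, tracheae, foregut and hindgut secrete anew before each moult. Tweedle proteins are secreted cuticle proteins that share a domain found in insects. Dominant mutations in *TwdlD* and in *Tb* (*Tubby*, once *TwdlA*) make the larva short and wide, and balancers such as TM6B commonly carry a *Tb* allele as a visible marker. Osiris genes encode proteins with a signal peptide and a conserved domain, and most of them lie side by side in one cluster on chromosome arm 3R, in the region of the dosage-sensitive *Triplo-lethal* locus. They are expressed in cells that make cuticle, mainly while they make it. *Osi9*, *Osi15* and *Osi19* act in the maturation of the tracheal tubes, and *Osi23* (*gore-tex*) is needed for the cuticle pores of olfactory sensilla. *Osi21* was found as *diehard4*, a modifier of photoreceptor degeneration, and *Osi6* and *Osi7* affect resistance to the fruit toxin octanoic acid.

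Each value below is the log2 of *poly* signal over wild-type signal within 1 array, so −1 means 2-fold lower in *poly* mutants. Such ratios tell neither transcript levels nor signal over background, so no level is compared between genes. The transcript of *poly* itself had a log2 ratio of −1.49, −1.57, −1.69 and −1.79 on replicates 1 to 4. The arrays were not alike. Replicate 3 had the widest spread over all probes (the median absolute deviation was 0.35 there and 0.20 to 0.26 elsewhere). Across probes its ratios had a Pearson r of 0.214 with replicate 1, −0.183 with replicate 2 and 0.299 with replicate 4. Pairs of the other arrays had an r between 0.385 and 0.619. A gene was called where limma gave a probe's mean ratio an adjusted p under 0.05 against 0 (4 arrays, Benjamini–Hochberg, all 14569 probes).

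The families differed in what the test called. Of the 25 Tweedle genes 3 fell in *poly* mutants, *Twdlalpha*, *TwdlX* and *TwdlP*, and 0 rose. Of the 24 Osiris genes 0 fell and 0 rose, also 0 in each direction at an unadjusted p under 0.05. Over all genes, 1.25% were called lower and 1.42% higher. Among all called genes 46.9% were lower, or 61.8% with the arrays scaled to one spread. At an unadjusted p under 0.05, 8 Tweedle genes were lower and 0 higher, where 8.9% of all genes were lower and 8.1% higher. *TwdlL* was among the 8 through 1 of its 2 probes, and 7 were lower with the probes of a gene averaged. The median log2 ratio was −0.99 over the Tweedle genes and 0.04 over the Osiris genes, against 0.04 over all genes, and −0.45 over both families together. The Tweedle median was −0.51 without replicate 4 and −1.44 without replicate 3. Without replicate 3 limma had 4 Osiris genes lower at an unadjusted p under 0.05, as it had 1163 of all 11907 genes. The mean ratio was below 0 in 23 of the 25 Tweedle genes and in 11 of the 24 Osiris genes, against 5110 of all 11907 genes. These are descriptions of the 2 lists and were not tested against each other. In RNA of whole larvae, fewer epidermal cells and less RNA per cell cannot be told apart. A call of 0 does not show that the Osiris genes were unchanged, since the 95% interval of a member's ratio was as wide as 4.53.

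**Figure D1:**
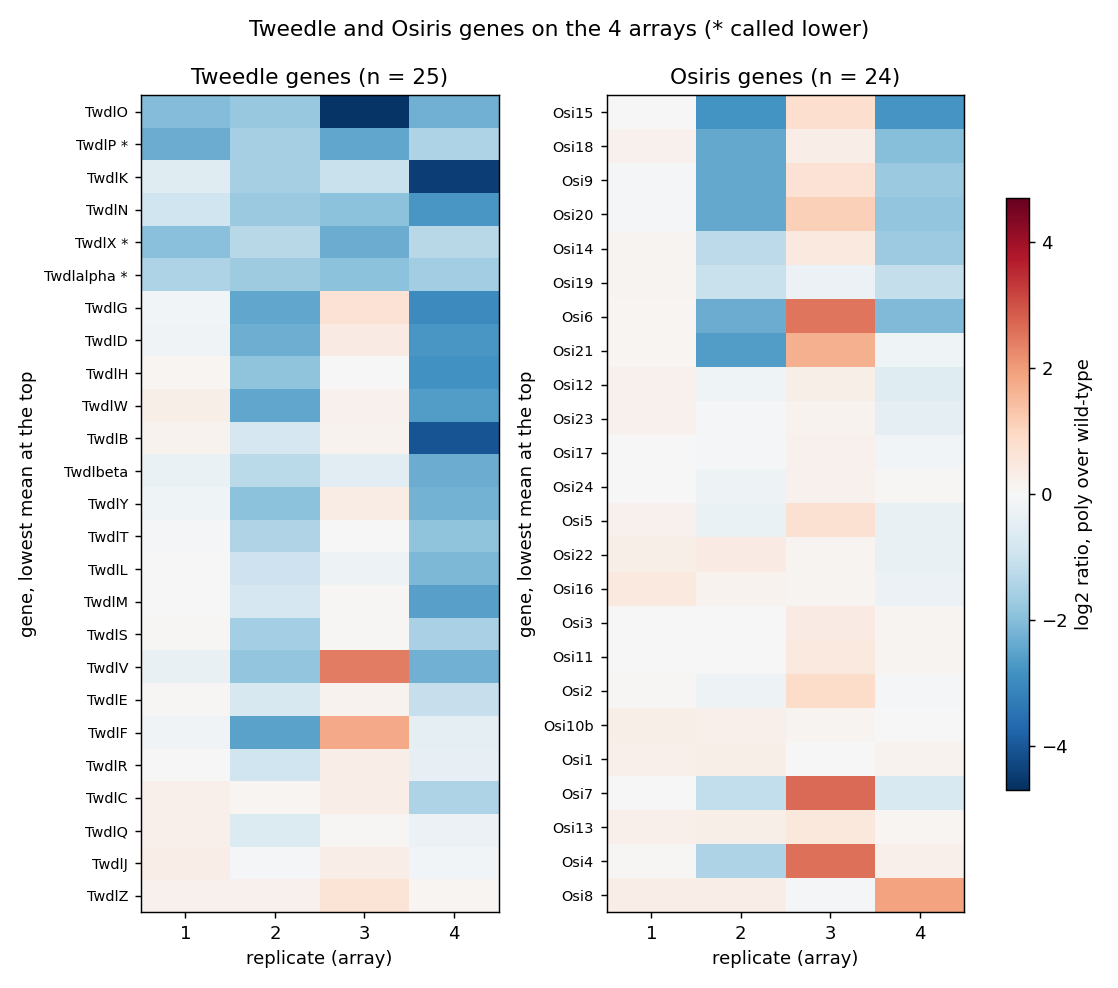
Log2 ratio of *poly* over wild-type (colour, blue below 0 and red above 0) of the 25 Tweedle and 24 Osiris genes (rows, ordered by their mean, several probes of a gene averaged) on replicates 1 to 4 (columns). Stars mark the 3 genes called lower, *Twdlalpha*, *TwdlX* and *TwdlP*, which are blue in all 4 columns, while many other members are blue on replicates 2 and 4 and pale or red on replicates 1 and 3.

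*Twdlalpha* (CG32574), on the X chromosome, was the most even of the called genes. Its log2 ratio was −1.46, −1.67, −1.91 and −1.65 on replicates 1 to 4. The ratio was lower than −1 on each array, in both dye orientations, with a mean of −1.67 ± 0.19 (SD, n = 4, adjusted p = 0.0127 from limma, 95% interval −1.98 to −1.37). *TwdlX* (CG32571), its close neighbour on the X chromosome, had ratios of −1.98, −1.30, −2.33 and −1.32. It was also lower than −1 throughout and lowest on replicate 3, with a mean of −1.73 ± 0.51 (SD, n = 4, adjusted p = 0.0344 from limma). *TwdlP* (CG14240), in the large Tweedle cluster of 3R, had ratios of −2.35, −1.56, −2.45 and −1.45. The 4 arrays again lay below −1, and the mean was −1.95 ± 0.52 (SD, n = 4, adjusted p = 0.0297 from limma). No role beyond that of the family is given here for these 3 genes. With dye orientation as a term, only *Twdlalpha* was still called among the Tweedle genes, and the calls of *TwdlP* and *TwdlX* had adjusted p = 0.0635 and 0.0711 from limma. Without replicate 1, 2 or 4, 0 of the 49 genes were called, as were 0 of all genes. In these fits limma had 8, 5 and 7 Tweedle genes lower at an unadjusted p under 0.05. Of all 11907 genes 702, 688 and 930 were lower there.

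*TwdlO*, *TwdlN* and *TwdlK*, of the same cluster as *TwdlP*, had means as low as the called genes but did not pass. *TwdlO* (CG6452) had log2 ratios of −2.03, −1.77, −4.61 and −2.24 on replicates 1 to 4. It had the lowest mean of the 49 genes, −2.66 ± 1.32 (SD, n = 4, adjusted p = 0.0818 from limma), and replicate 3 stood far below the other arrays. Without replicate 3 its mean was −2.01, with adjusted p = 0.0183 from limma. *TwdlN* (CG5476) had ratios of −0.94, −1.74, −1.93 and −2.74. Each array was below 0, and the mean of −1.84 ± 0.74 (SD, n = 4) had an adjusted p = 0.059 from limma. *TwdlK* (CG6460) had ratios of −0.58, −1.58, −1.05 and −4.42, and replicate 4 was far below the rest. Its mean was −1.91 ± 1.73 (SD, n = 4, adjusted p = 0.268 from limma). Together with the 3 called genes, *Twdlbeta*, *TwdlT* and *TwdlL*, they made up 9 Tweedle genes, of 25, whose ratio was below 0 on each array, against 11.9% of all genes. *TwdlL* counts here through the mean of its 2 probes, 1 of which was above 0 on each array. No Osiris gene was below 0 on each array.

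Most other Tweedle genes were low on some arrays and close to 0 on others. *TwdlD* (CG14243), in which a dominant mutation alters body shape, had log2 ratios of −0.16, −2.29, 0.38 and −2.74 on replicates 1 to 4. Replicates 2 and 4 were low and replicates 1 and 3 were near 0, and the mean was −1.20 ± 1.54 (SD, n = 4, adjusted p = 0.449 from limma). *Tb* (CG5480), the Tweedle gene whose symbol lies outside the rule, had ratios of 0.01, −2.09, 0.11 and −1.42. Replicates 2 and 4 were again low and replicates 1 and 3 near 0, with a mean of −0.85 ± 1.09 (SD, n = 4, adjusted p = 0.454 from limma). With *Tb* counted, 3 of the Tweedle genes were still called and the family's median was −0.92. The next genes were singled out after their values were seen. *TwdlW* had ratios of 0.26, −2.44, 0.21 and −2.61, and *TwdlG* of −0.12, −2.45, 0.69 and −2.99. *TwdlB* had ratios of 0.15, −0.78, 0.15 and −4.05, so that replicate 4 alone was far from the rest. *TwdlF* and *TwdlV*, near neighbours on 3R, were both high on replicate 3 (1.77 and 2.40), and both were low on replicate 2, where *TwdlV* was at −1.85. On replicate 4 *TwdlV* was at −2.26 and *TwdlF* at −0.44, so even neighbouring genes parted there.

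At the other end of the family, *TwdlZ* had the highest mean, 0.28, with ratios between 0.08 and 0.64, and *TwdlJ* had a mean of 0.11, with ratios between −0.15 and 0.32. The 95% intervals of *TwdlJ*, *TwdlQ*, *TwdlR* and *TwdlZ* lay within −1 and 1, that is, within 2-fold of wild-type, as did that of 1 of the *TwdlL* probes. The 2 probes of *TwdlL* disagreed. One had ratios of −0.35, −2.17, −0.60 and −4.30 (mean −1.85, adjusted p = 0.305 from limma), and the other had ratios of 0.29, 0.21, 0.12 and 0.05 (mean 0.17). Which of them reports *TwdlL* is not known here, and its value in the family median is the mean of both. Probes of near relatives can share signal, and the probe sequences were not used here.

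**Figure D2:**
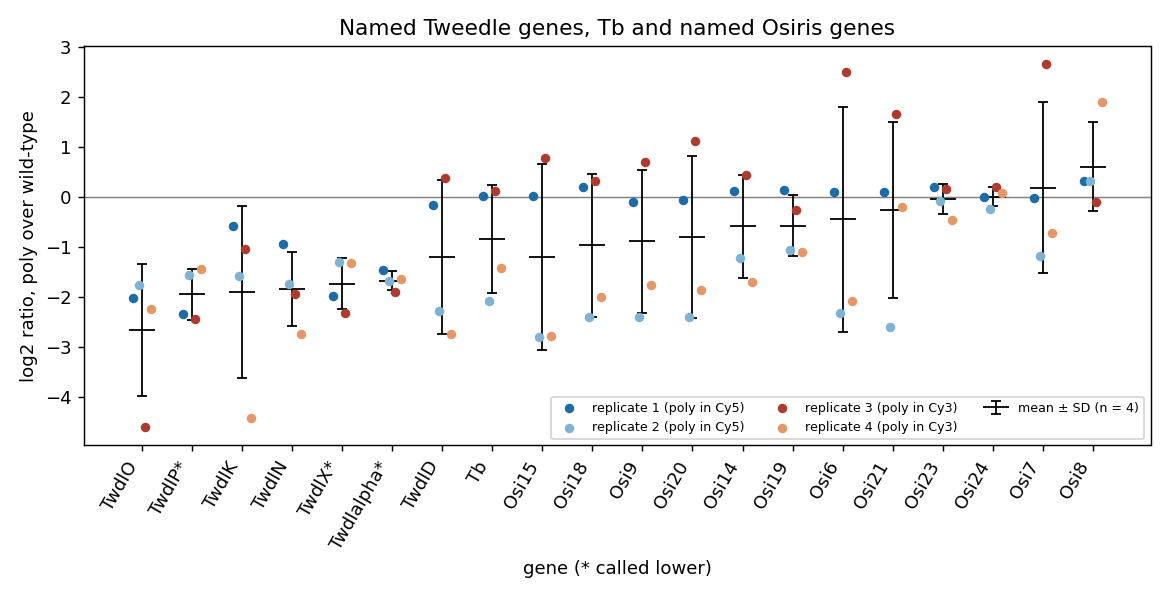
Log2 ratio of *poly* over wild-type (vertical axis) of 7 Tweedle genes, *Tb* and 12 Osiris genes (horizontal axis), with 1 point for each of the 4 arrays and the mean ± SD in black. The 3 called genes (stars) have 4 points between −2.45 and −1.30, whereas in *TwdlD*, *Tb* and *Osi15* replicates 1 and 3 lie near or above 0 and replicates 2 and 4 lie below −1.

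Among the Osiris genes of the tracheal tubes, *Osi15* (CG1157) had the lowest mean of its family. Its log2 ratio was 0.02, −2.80, 0.77 and −2.78 on replicates 1 to 4. Replicates 2 and 4 were low by the same amount, with *poly* RNA in Cy5 on replicate 2 and in Cy3 on replicate 4, and replicates 1 and 3 were at or above 0. The mean was −1.20 ± 1.87 (SD, n = 4, adjusted p = 0.549 from limma), with a 95% interval from −3.08 to 0.68. *Osi9* (CG15592) had ratios of −0.09, −2.40, 0.70 and −1.76. It showed the same order of arrays, with a mean of −0.89 (adjusted p = 0.567 from limma). *Osi19* (CG15189) had ratios of 0.14, −1.06, −0.27 and −1.11. Its arrays differed less, and its mean was −0.57 ± 0.61 (SD, n = 4, adjusted p = 0.387 from limma).

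Of *Osi18*, *Osi20* and *Osi14*, for which no role is given here, *Osi18* had log2 ratios of 0.20, −2.41, 0.33 and −2.00 (mean −0.97). *Osi20* had ratios of −0.06, −2.40, 1.13 and −1.86 (mean −0.80), and *Osi14* of 0.13, −1.23, 0.44 and −1.70 (mean −0.59). In each of the 3, replicates 2 and 4 lay below −1 and replicate 3 was the highest. *Osi6* (CG1151), one of the genes linked to octanoic acid resistance, had ratios of 0.10, −2.32, 2.50 and −2.09. It had the widest range of the 49 genes, 4.83 on the log2 scale, and a mean of −0.45. *Osi7* (CG1153), its neighbour, had ratios of −0.01, −1.17, 2.66 and −0.72, and a mean of 0.19. *Osi21* (CG14925), the *diehard4* gene on arm 2L, had ratios of 0.10, −2.61, 1.66 and −0.20. *Osi7* and *Osi21* were highest on replicate 3 and lowest on replicate 2, and were near 0 on replicate 1.

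*Osi4*, singled out after its values were seen, was among the most variable of the family, with log2 ratios of 0.04, −1.44, 2.58 and 0.25. *Osi23* and *Osi24*, by contrast, had ratios within 0.5 of 0 on each array. *Osi23* (CG15538), of the olfactory pores, had log2 ratios of 0.20, −0.09, 0.17 and −0.45, and *Osi24* (CG15589) of 0.00, −0.25, 0.20 and 0.07. Their means of −0.04 and 0.00 were within the spread of their arrays. *Osi8* (CG15591) had the highest mean of the family, 0.61, with ratios of 0.32, 0.31, −0.10 and 1.90. Replicate 4 alone was above 1, and the gene did not pass (adjusted p = 0.528 from limma). Of the 25 Osiris probes, 14 had a 95% interval within −1 and 1, against 5 of the 26 Tweedle probes. The share over all probes was not counted. The median SD over the arrays was 0.48 over the Osiris genes and 0.94 over the Tweedle genes, against 0.30 over all genes. The 14 belonged to *Osi1*, *Osi2*, *Osi3*, *Osi5*, *Osi11*, *Osi12*, *Osi13*, *Osi16*, *Osi17*, *Osi22*, *Osi23*, *Osi24* and, with 2 probes, *Osi10b*. RefSeq divides the former *Osi10* into *Osi10a* and *Osi10b*, both probes stand under *Osi10b* in the annotation, and which of the 2 genes they match was not examined here. *Osi10a* and the Tweedle pseudogene *TwdlU* are not analysed here.

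The ratios of both families differed between the arrays. These descriptions by array were chosen after the values were seen. Over the Tweedle genes the median log2 ratio came to −0.09, −1.56, 0.06 and −2.13 on replicates 1 to 4. Over the Osiris genes it was 0.11, −0.24, 0.42 and −0.31, and over all genes −0.01, −0.05, 0.16 and 0.01. In both families replicates 2 and 4, which differ in dye orientation, had the lower medians. Of the 25 Tweedle genes, 4 were below −1 on replicate 1, 16 on replicate 2, 6 on replicate 3 and 20 on replicate 4. Of the 24 Osiris genes, 0, 10, 0 and 7 were. Over all genes these shares were 2.67%, 9.26%, 4.55% and 2.78%. On replicate 3, 5 of the 24 Osiris genes and 2 of the 25 Tweedle genes were above 1, where 16.2% of all genes were. On replicate 1 the 24 Osiris genes lay in a narrow band between −0.09 and 0.45.

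**Figure D3:**
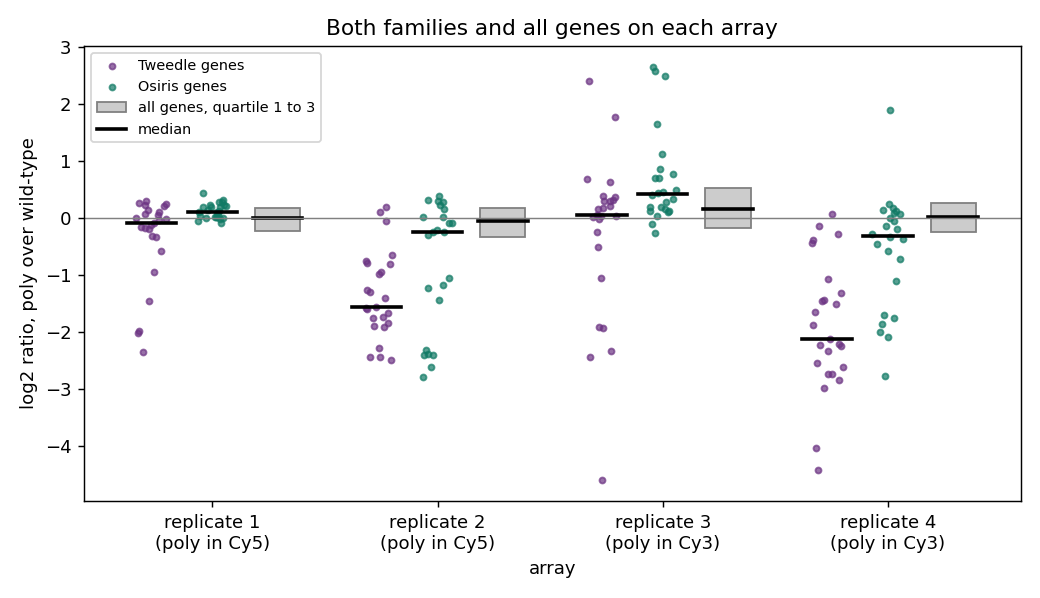
Log2 ratio of *poly* over wild-type (vertical axis) of each Tweedle gene (purple) and each Osiris gene (green) on the 4 arrays (horizontal axis), beside the interquartile range of all genes (grey box); black lines are medians. The Tweedle medians of −1.56 and −2.13 on replicates 2 and 4 lie below the grey boxes, and those of −0.09 and 0.06 on replicates 1 and 3 lie inside them.

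The spread between arrays was wider in both families than in most genes. The SD over the 4 arrays was above 1 in 11 of the 25 Tweedle genes and 9 of the 24 Osiris genes, against 11.6% of all genes. Of these 20 genes, 18 lay within 0.5 of 0 on replicate 1, the exceptions being *TwdlO* and *TwdlK*, as did 83.0% of all genes. The lowest of the 4 arrays was replicate 4 in 17 Tweedle genes, replicate 2 or 3 in 4 each and replicate 1 in 0. In Osiris genes it was replicate 2 in 11, replicate 4 in 10, replicate 3 in 2 and replicate 1 in 1. Over all genes, replicates 1 to 4 were the lowest in 21.7%, 27.5%, 23.5% and 27.3%. The highest was replicate 3 in 17 Osiris genes and 13 Tweedle genes, as it was in 46.2% of all genes. No member's ratio differed between the dye orientations in a fit with that term (smallest adjusted p = 0.497 from limma, 0 at an unadjusted p under 0.05). With 2 arrays in each orientation, this does not show that dye had no part.

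Genes that mark larval age also differed between the arrays. Of 11 measured genes of salivary glue, larval serum and fat body proteins, 0 were called (2 higher and 0 lower at an unadjusted p under 0.05). Over all genes 8.1% were higher and 8.9% lower at that unadjusted threshold. Replicate 3 stood apart with a median log2 ratio of 3.27 over the 11 genes, against −0.13, −0.12 and 0.13 on replicates 1, 2 and 4. *Sgs4* and *Sgs5*, glue proteins made late in the last instar, were at 5.13 and 5.55 on replicate 3 and between −0.21 and 0.27 on the other arrays. The list was not uniform, and its genes are named here after their values were seen. On replicate 3 *Sgs1*, *Eig71Ee* and *Fbp1* were at 3.3, 3.8 and 5.2. *ng1*, *ng2*, *ng3* and *ng4*, also salivary gland genes, were at −0.48, −1.10, 0.73 and 2.37 there. *Fbp2*, a fat body protein, was at −0.13 on replicate 1 and between 3.19 and 3.62 on the others, and *Lsp2*, a larval serum protein, had ratios of −3.48, 1.53, 3.43 and 1.12. On replicate 3 *Osi4*, *Osi6*, *Osi7*, *Osi20*, *Osi21*, *TwdlF* and *TwdlV* were above 1, which is 14.3% of the 49 members, no more than the 16.2% of all genes. The part of larval age in the ratios of the Tweedle and Osiris genes was not tested.

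Neighbouring members often differed in their ratios. RefSeq's gene order placed 13 Tweedle genes in a run of 15 protein-coding genes on arm 3R, where neighbours were joined when at most 10 places apart. Their median was −1.13, from −2.66 for *TwdlO* to 0.11 for *TwdlJ*, and 1 was called. Among the members of the run, *TwdlP*, called lower, lies between *TwdlM* and *TwdlB*, which had ratios of −0.03 and 0.15 on replicate 1 where *TwdlP* had −2.35. *TwdlJ* lies between *TwdlK* and *TwdlN*, whose means were −1.91 and −1.84. The 2 other genes inside the run are *Tb* and *beat-VII*, a gene of the beat family of cell surface proteins, and *beat-VII* had a mean of 0.03. On the X chromosome 4 Tweedle genes lie within 5 places, and their means were −1.73 for *TwdlX*, −0.99 for *TwdlY*, 0.28 for *TwdlZ* and −1.67 for *Twdlalpha*. Called and uncalled genes thus lay side by side there too.

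The Osiris cluster of 3R held 21 of the 24 members in 28 places. Its median was 0.07, from −1.20 for *Osi15* to 0.61 for *Osi8*, and 0 were called. Variable genes lay next to even ones at some places along it. Among its members *Osi8*, with 0.31 on replicate 2, lies between *Osi7* (−1.17) and *Osi9* (−2.40), and *Osi16* (0.16 on replicate 2) and *Osi17* (−0.09) lie between *Osi15* (−2.80) and *Osi18* (−2.41). Of the genes of other families inside the cluster, 4 were measured. CG15597 had log2 ratios of −0.66, −0.97, −0.57 and −0.88, a mean of −0.77 that did not pass (adjusted p = 0.0508 from limma). It was below 0 on each array, as no Osiris gene was. CG15594 had a mean of 0.25, CG31560 of 0.34 and *NPFR*, a neuropeptide receptor, of −0.08. *Osi22* and *Osi23*, elsewhere on 3R, had means of 0.10 and −0.04.

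**Figure D4:**
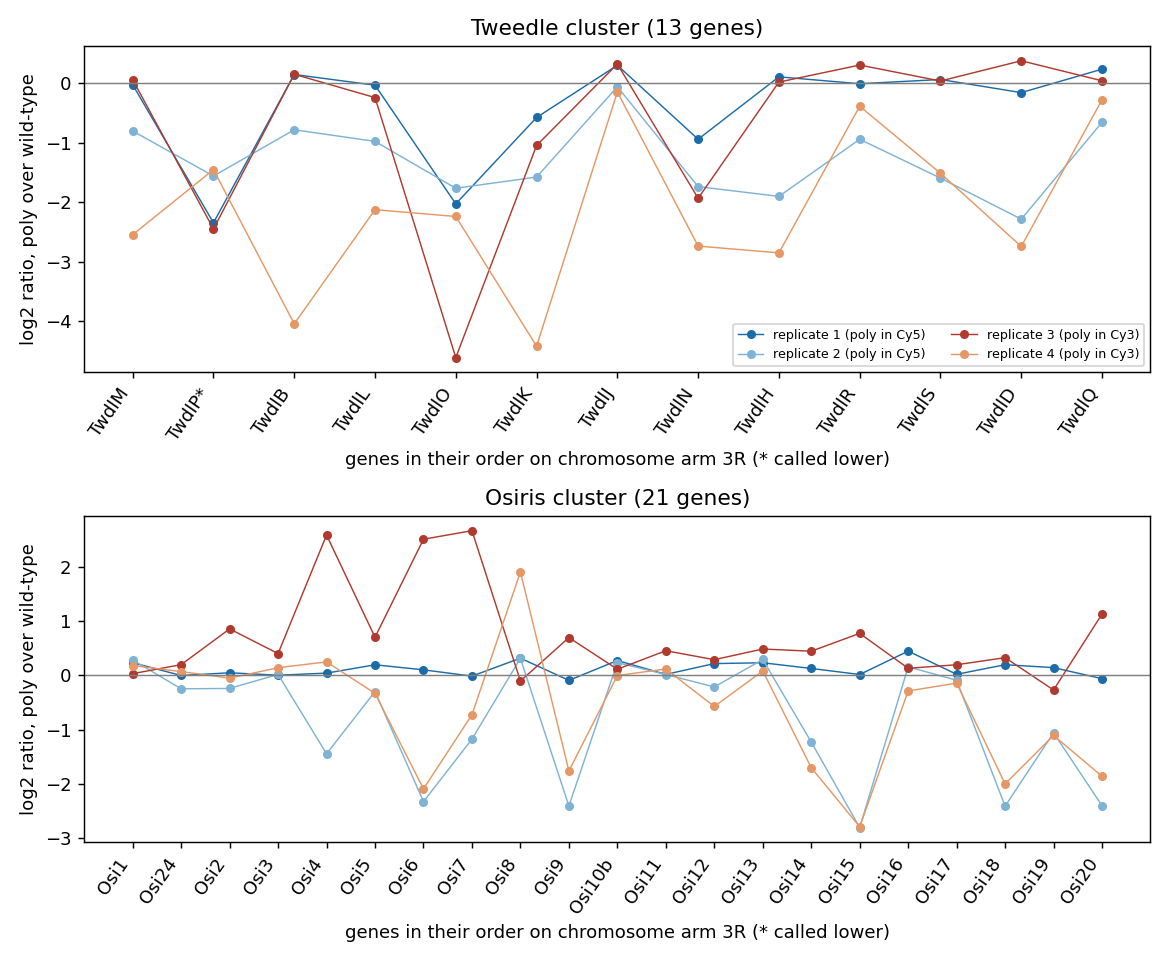
Log2 ratio of *poly* over wild-type (vertical axis) of the 13 Tweedle genes (top) and the 21 Osiris genes (bottom) of the 2 clusters on chromosome arm 3R, in their order along the arm (horizontal axis, not to scale), with 1 line for each array. *TwdlP* (star) and *TwdlO* are low on all 4 lines, and in the Osiris cluster the lines of replicates 2 and 4 dip together at *Osi6*, *Osi9*, *Osi15*, *Osi18* and *Osi20* while replicate 1 stays near 0.

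Other genes of the cuticle set the families in context, from lists chosen with earlier results of these data known. Beside the counts below, 1.25% of all genes were called lower and 1.42% higher. Of 11 *Lcp* genes, for larval cuticle proteins outside the Tweedle and Osiris families, 6 were called lower and 0 higher, with medians of −1.61, −1.25, −1.95 and −1.75 on replicates 1 to 4. Of 68 *Cpr* genes, whose proteins bind chitin through the Rebers–Riddiford consensus, 8 were called lower and 0 higher, with medians of −0.15, −0.59, 0.02 and −0.56. The *Lcp* and *Cpr* lists were split by symbol only, and Lcp proteins also carry this consensus. The *Cpr* medians, as in both families, were lower on replicates 2 and 4 than on replicates 1 and 3, whereas the *Lcp* median was highest on replicate 2 and lowest on replicate 3. A list of 20 measured genes was drawn up for chitin and matrix, and not all of their proteins act on chitin directly. Of these 20 genes, 5 were called lower and 0 higher, with a median of −0.79 and array medians between −0.92 and −0.65. Among them *verm* (CG8756), a chitin deacetylase of tracheae and epidermis, had a mean of −1.46 ± 0.09 (SD, n = 4, adjusted p = 0.0115 from limma), and *Gasp* (CG10287), a chitin-binding protein of tracheae, one of −1.29 ± 0.11 (adjusted p = 0.016 from limma). The SD over the arrays was above 1 in 12 of the 68 *Cpr* genes, against the 11.6% of all genes. It was above 1 in 1 of the 20 genes of the chitin and matrix list and 1 of the 11 *Lcp* genes. None of these differences between lists was tested.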

How the data were processed

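RNA was measured on 4 2-colour long-oligonucleotide arrays, each with 1 sample of *poly* mutant and 1 of wild-type larvae. Total RNA was made into double-stranded cDNA and labelled by random priming, so strand was not kept. The authors used Dapple to quantify spots and vsn to normalize them, and deposited log2 ratios of 14569 probes. The sources used here do not give background correction, spot filters or versions. Their direction, *poly* over wild-type, is that of the sample titles, and the *poly* transcript was below 0 in both dye orientations. No depth or intensity was used, so precision is limited by the number of arrays.

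Gene symbols came from the platform annotation held by GEO and were brought up to date with RefSeq (assembly Release 6), which served for names and gene order only. Of the probes, 12657 had 1 gene symbol, 96 several and 1 none, and 1815 are unnamed here. The mean ratio of a probe was set against 0 in a two-sided limma fit (lmFit, eBayes) with 4.97 degrees of freedom (1.97 from the prior). A gene was called once, if a probe passed and none passed the other way. List medians use the mean of each gene's probes, and named genes the probe with the smallest p. Values on each array are given for the called members, the 6 of each family with the largest mean in size, members with a known role, *Tb* and *poly*. Of other lists, up to 3 genes with the smallest p could be named, except for the genes that mark larval age. The fit was tested on simulated ratios. The members and lists were chosen with earlier results of these data known. Alternatives were a dye term, median centring, scaling, averaged probes, array weights, a robust prior, a minimum mean of 0.5 in size, fits that left out 1 replicate at a time, the least variable probe of each gene (for medians) and *Tb* as a member. Protein identity between members was not computed, since no sequences were at hand. Software was limma 3.58.1 in R 4.3.3, with matplotlib 3.10.9, numpy 2.4.6 and pandas 2.3.3 in Python 3.11.15.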

Additional observations from a re-analysis of the deposited data

Results flagged for a closer look

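Over the probes of the 49 members, *Tb* and *poly* (53 probes), 2 had 1 array far from the other arrays. A test of this kind picks out about 1 group in 20 by chance. *TwdlO* was at −4.61 on replicate 3 and between −2.24 and −1.77 on the other arrays. *TwdlC* was at −1.44 on replicate 4 and between 0.11 and 0.30 on the other arrays.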

How the results depend on the processing

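No paired analysis was possible because the 4 arrays form 1 group, and each ratio already sets *poly* against wild-type within an array. The count of Tweedle genes called lower, 3 in the report, was 1 with a dye term, 5 with array weights (*TwdlN* and *TwdlO* were added) and between 0 and 4 with a replicate left out: 0 without replicate 1, 2 or 4, and 4 without replicate 3, where *TwdlO* was added. With both families together these counts were the same, since 0 Osiris genes were called in either direction under every alternative run. With scaled arrays 3 Tweedle genes were called, *TwdlO* in place of *TwdlP* (adjusted p = 0.0529 from limma). The 3 genes kept their direction under every alternative, which could not come out otherwise, since each was below −1 on all 4 arrays. Of all genes 149 were called lower and 169 higher. A dye term gave 65 lower and 96 higher, array weights gave 639 lower and 622 higher, and with a replicate left out they ran from 0 to 151 lower and from 0 to 216 higher. With scaled arrays 134 were lower and 83 higher, so that the lower share of all calls was 61.8%, against 46.9% unscaled. At an unadjusted p under 0.05, 14 Tweedle and 4 Osiris genes were lower without replicate 3, against 8 and 0 on the 4 arrays. Of all 11907 genes, 1163 were lower at that threshold without replicate 3, against 1060 on the 4 arrays. The Tweedle median lay between −1.44 without replicate 3 and −0.51 without replicate 4, and the Osiris median between −0.13 without replicate 3 and 0.12 without replicate 4. The cause of these changes was not tested.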

Other observations

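Other lists of genes that shape or time the cuticle were measured. A list of 8 genes was drawn up for apical proteins with a zona pellucida domain, which anchor epidermis and tracheae to the matrix. It also held *trn*, whose protein is not of that class, so its values do not describe that class alone. The list's median was −0.25. Among its genes *qsm* (CG13432) was called lower, with log2 ratios of −0.98, −0.86, −1.10 and −1.09 on replicates 1 to 4 (adjusted p = 0.0242 from limma). Of 10 genes of cuticle tanning, *stw* (CG42345), a laccase that crosslinks cuticle, was called lower, with ratios of −0.92, −0.89, −1.40 and −1.02 (adjusted p = 0.0338 from limma), and the list's median was −0.07. At an unadjusted p under 0.05, 1 tanning gene was lower and 2 were higher. The higher ones were *yellow-f*, with a mean of 0.63 (adjusted p = 0.0765 from limma), and *speck*, with a mean of 0.59 (adjusted p = 0.112 from limma). Of 11 genes for transcription factors of the ecdysone response and of cuticle, 5 were lower and 0 higher at an unadjusted p under 0.05. Over all genes these shares were 8.9% and 8.1%, and 1.25% were called lower and 1.42% higher. Of the 11 genes 0 were called, with array medians between −0.29 and −0.13. The nuclear receptor *Hr38* was nearest, with a mean of −0.63 (adjusted p = 0.0756 from limma). The median SD over the arrays was 0.41 in the zona pellucida list, 0.49 in the tanning list and 0.28 in the transcription factor list, against 0.30 over all genes.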
